A study of Mus musculus with 10 samples.

Results

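Pyruvate reaches the mitochondrial matrix and is committed there by a small set of proteins, and 9 of their genes were followed in bone marrow RNA: the carrier genes Mpc1 and Mpc2, the pyruvate dehydrogenase subunit genes Pdha1, Pdhb and Dlat, the pyruvate carboxylase gene Pcx, and the kinase genes Pdk1, Pdk2 and Pdk3. They were taken by gene symbol from a table of 55367 genes. The libraries came from mouse bone marrow cells that the labels call BMMC. In 5 libraries the mice had drunk water with 1% α-ketoglutarate (α-KG), an intermediate of the tricarboxylic acid cycle, and in the other 5 they had drunk regular water. The libraries are named here α-KG 1 to 5 and water 1 to 5, and equal numbers pair nothing. The series is titled as a study of metabolism, platelets and inflammation in myeloproliferative neoplasms. The sources used here do not state strain, genotype, age, sex, length of treatment or the number of animals behind a library, so all p-values describe the spread between libraries, which may be technical in part.

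As background, pyruvate made by glycolysis crosses the inner mitochondrial membrane through a carrier built from MPC1 and MPC2 together. In the matrix it has a pair of main fates. The pyruvate dehydrogenase complex turns it into acetyl-CoA: PDHA1 and PDHB form its E1 enzyme, and DLAT is the E2 core that carries lipoate. Pyruvate carboxylase, a biotin enzyme encoded by Pcx, turns it into oxaloacetate and so refills the tricarboxylic acid cycle. PDK1, PDK2 and PDK3 phosphorylate PDHA1 and switch the complex off. PDK1 is a known target of the hypoxia-inducible factor HIF, whose hydroxylases use α-KG as a co-substrate. Red cell precursors have mitochondria, but mature red cells have none and take their ATP from glycolysis.

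The libraries held between 14291364 and 22490118 counts, of which genes with enough counts to be tested made up at least 99.755%. Values below are CPM, the count of a gene per 1000000 counts of its library, with TMM scaling, and a gene is called where its adjusted p in edgeR's quasi-likelihood test is under 0.05. Red cell genes dominated the cell type markers: the 10 erythroid markers summed to 36323 to 124642 CPM in α-KG libraries and 29121 to 73094 CPM in water libraries. Library α-KG 1 stood apart, with the lowest erythroid sum of its group (the other α-KG libraries began at 54908 CPM), the lowest cell cycle marker sum (836 CPM, against 1293 CPM or more in the other α-KG libraries) and the highest B cell marker sum (337 CPM). Library water 3 had the lowest erythroid sum of all (29121 CPM, the other water libraries beginning at 49456 CPM). By the mean log2 CPM of the same markers, which weights them equally and served as the covariate below, α-KG 1 was lowest of all at 8.74, against 9.82 or more in water libraries. Monocyte markers separated the groups, at 545 to 1108 CPM in α-KG and 380 to 512 CPM in water, and 6 of the 8 were called higher in α-KG (2.39% over all tested genes). Xist, expressed from the inactive X chromosome, and the Y-linked gene Ddx3y both had counts in all 10 libraries, at least 2710 for Xist and 189 for Ddx3y.

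None of the pyruvate entry genes was called: 0 of 9 had an adjusted p under 0.05 by edgeR, where 2.73% of the 15126 tested genes did (2.39% higher and 0.344% lower in α-KG). The count was also 0 of 9 by DESeq2, which called 10.4% of the genes it gave an adjusted p, and by limma voom, which called 1.8% of tested genes. At an unadjusted p under 0.05 there were 4 of 9, namely Pcx, Pdk1, Dlat and Pdhb, against 27.8% of all tested genes. In none of the 9 did the α-KG libraries all lie on one side of the water libraries, which they did for 5.65% of tested genes. Log2 fold changes (α-KG over water) were below 0 for 7 genes and above 0 for Dlat and Mpc1, with a median of -0.25 beside 0.02 over all tested genes. In RNA from mixed marrow cells, fewer cells of a type and less RNA per cell cannot be told apart, and this holds for every value below.

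**Figure D1:**
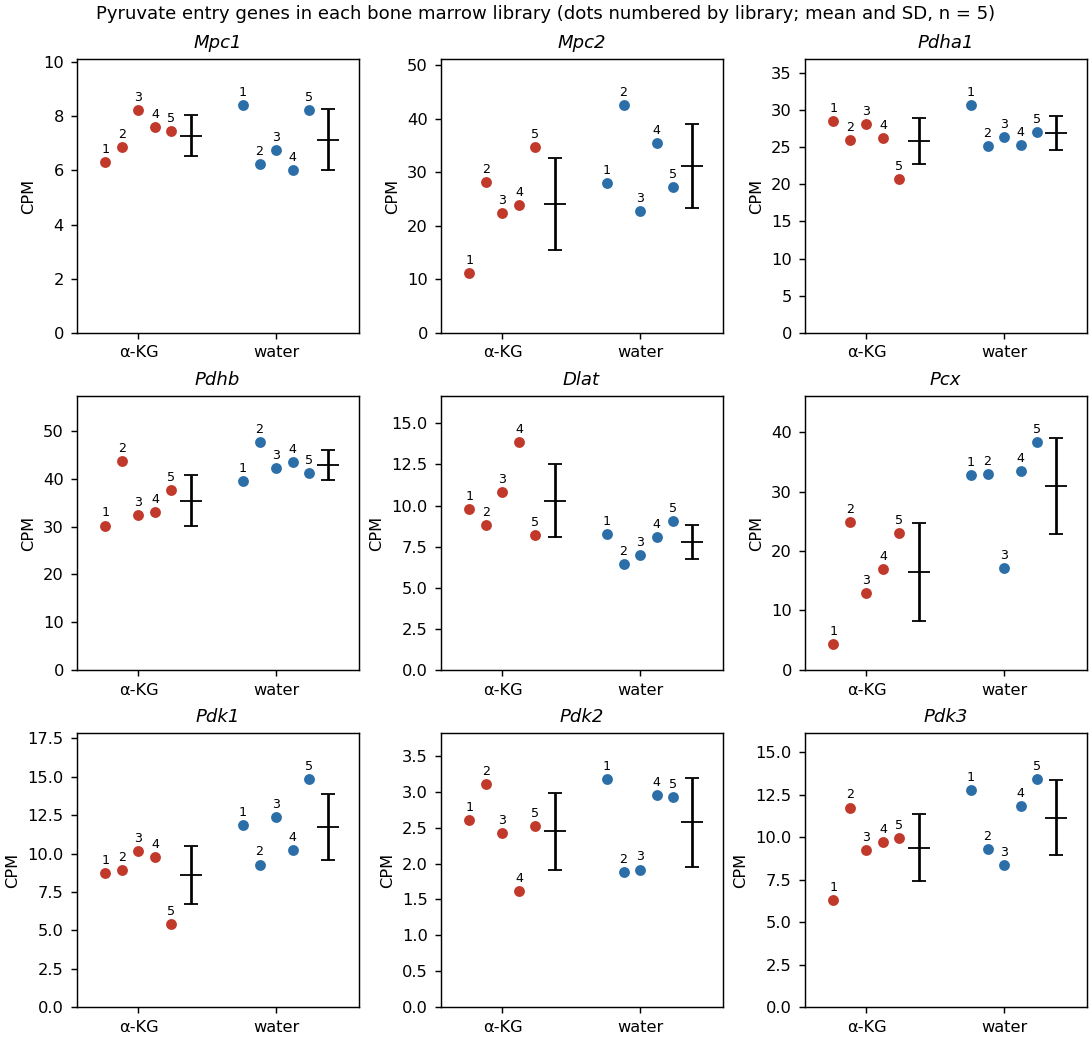
CPM of the 9 pyruvate entry genes in each library, α-KG left and water right in each panel; dots are libraries with their numbers, and bars are the mean and SD of 5 libraries. The groups overlap in all 9 panels, and Pcx in α-KG 1 (4.43 CPM) is the lowest of its 10 values by far.

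The carrier genes did not move together. Mpc1 (chromosome 17, 8282904 to 8297661, plus strand, GRCm38) encodes the smaller carrier subunit, and its level in α-KG libraries spanned 6.30 to 8.25 CPM, inside the 6.02 to 8.43 CPM of water libraries. Its means were 7.29 ± 0.744 CPM in α-KG and 7.13 ± 1.13 CPM in water (SD, n = 5 each), a log2 fold change of 0.03 ± 0.14 (SE, edgeR adjusted p = 0.896). A pseudogene copy, Mpc1-ps, was counted separately and held 112 counts over all libraries beside 1455 for Mpc1, so reads could be split between them. Mpc1 also shares 480 exon bases with 4930506C21Rik on the other strand.

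Mpc2 (chromosome 1, 165460637 to 165481214, plus strand) encodes the other carrier subunit. It measured 11.2, 28.1, 22.3, 23.9 and 34.6 CPM in α-KG 1 to 5, against 28.0, 42.6, 22.8, 35.5 and 27.2 CPM in water 1 to 5. The low α-KG 1 value set much of the spread, and 3 of the 5 water libraries lay within the span of the α-KG libraries. The log2 fold change was -0.38 ± 0.26 (SE, edgeR adjusted p = 0.343), with means of 24.0 ± 8.61 CPM in α-KG and 31.2 ± 7.84 CPM in water (SD, n = 5 each). The ratio of Mpc2 to Mpc1 per kilobase of exon was 0.929 ± 0.322 in α-KG and 1.29 ± 0.482 in water (SD, n = 5 each), a description with no test.

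The E1 enzyme of pyruvate dehydrogenase is built from the products of Pdha1 and Pdhb, and neither gene was called. Pdha1 (chromosome X, 160122209 to 160138413, minus strand), the subunit that the kinases phosphorylate, had 25.9 ± 3.11 CPM in α-KG and 26.9 ± 2.25 CPM in water (SD, n = 5 each). Its log2 fold change was -0.06 ± 0.11 (SE, edgeR adjusted p = 0.764). It shares 603 exon bases with Map3k15 on the opposite strand, which held 1535 counts over all libraries beside 5451 for Pdha1. Whether the counting used strand is not stated, so reads in the shared bases could belong to either gene.

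Pdhb (chromosome 14, 8165996 to 8173025, minus strand) encodes the other E1 subunit. Its values were 30.3, 43.7, 32.5, 33.1 and 37.8 CPM in α-KG 1 to 5, against 39.6, 47.8, 42.3, 43.5 and 41.3 CPM in water 1 to 5. All α-KG libraries except α-KG 2 were below all water libraries. The means were 35.5 ± 5.37 CPM in α-KG and 42.9 ± 3.09 CPM in water (SD, n = 5 each), a log2 fold change of -0.27 ± 0.12 (SE, unadjusted p = 0.04, edgeR adjusted p = 0.161). Without α-KG 2 it was -0.36 and Pdhb was called (edgeR adjusted p = 0.0432), in a fit where 17.4% of tested genes were called. With the monocyte marker mean as a covariate it was 0.03 (edgeR adjusted p = 1), and with the cell cycle marker mean -0.05 (edgeR adjusted p = 0.967). Both fits called 0 genes. The monocyte marker mean did not overlap between the groups (5.576 to 6.485 log2 CPM in α-KG, 5.051 to 5.515 in water). That fit therefore cannot tell the marker mean and the treatment apart, and the part of these cells was not tested.

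Dlat (chromosome 9, 50634633 to 50659780, minus strand), the lipoate-carrying E2 core, was the member with the highest log2 fold change. It measured 9.76, 8.84, 10.8, 13.9 and 8.20 CPM in α-KG 1 to 5, against 8.29, 6.45, 6.96, 8.11 and 9.08 CPM in water 1 to 5. Libraries α-KG 1, 3 and 4 exceeded all water libraries, while α-KG 2 and 5 lay below water 5. The log2 fold change was 0.40 ± 0.16 (SE, unadjusted p = 0.0266, edgeR adjusted p = 0.135), with means of 10.3 ± 2.23 CPM in α-KG and 7.78 ± 1.06 CPM in water (SD, n = 5 each). Over 24 other ways of processing it stayed between 0.15 and 0.47 and was never called. So within one complex the E2 gene had a value above 0 and the E1 gene Pdhb a value below 0. The other E1 gene, Pdha1, was within 1 SE of 0 (-0.06 ± 0.11), and none of the 3 passed the test.

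Pcx (chromosome 19, 4510472 to 4621752, plus strand), the route from pyruvate to oxaloacetate, had the largest difference of the 9 genes. It measured 4.43, 24.8, 12.9, 16.9 and 23.1 CPM in α-KG 1 to 5, against 32.9, 33.0, 17.2, 33.5 and 38.4 CPM in water 1 to 5. Library water 3 lay inside the α-KG range, and the other 4 water libraries lay above all α-KG libraries. Its means were 16.4 ± 8.25 CPM in α-KG and 31.0 ± 8.04 CPM in water (SD, n = 5 each). The log2 fold change of -0.92 ± 0.37 missed the threshold (SE, unadjusted p = 0.0295, edgeR adjusted p = 0.141).

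Whether Pcx was called depended on the settings. Without α-KG 1, where it was lowest, the log2 fold change was -0.67 (edgeR adjusted p = 0.134), and over all single libraries left out it ran from -1.13 to -0.67 with edgeR adjusted p from 0.0717 to 0.277. Pcx was called with scaling by library totals alone (-1.22, edgeR adjusted p = 0.00365), where 7.66% of tested genes were called and the median log2 fold change of all genes was -0.22. It was called by limma voom with quality weights (-1.03, adjusted p = 0.0453), where 15.6% of tested genes were called. With α-KG 1 and water 3 both left out, the libraries lowest in Pcx and in erythroid markers within their groups, it was -0.82 and called (edgeR adjusted p = 0.0377), where 2.66% were called. That pair was chosen after seeing the data, and leaving it out removes the water library that overlapped the α-KG range. The call is therefore a description only.

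Markers of some other cells and of division differed between the same libraries: the monocyte sums given above did not overlap between the groups. Macrophage markers summed to 78.5 to 126 CPM in α-KG and 39.8 to 80.4 CPM in water, with 8 of 8 log2 fold changes above 0 and 4 called higher (2.39% over all tested genes). T and NK cell markers summed to 18.7 to 36.0 CPM in α-KG and 15.1 to 22.4 CPM in water, with 7 of 7 above 0 and 2 called higher (2.39% over all tested genes). Of 5 tested stroma and bone markers, 3 had log2 fold changes above 0 and 2 below, with a median of 0.04. Cxcl12 and Kitl were called higher in α-KG by edgeR (2.39% over all tested genes). Col1a1 (-1.64) and Col1a2 (-1.06) were below 0 and not called. The list summed to 46.4 to 106 CPM in α-KG and 36.9 to 194 CPM in water. The cell cycle markers summed to 836 to 3032 CPM in α-KG and 2945 to 3962 CPM in water, and all 10 had log2 fold changes below 0 with none called by edgeR. Their median was -0.82, and all 10 had an unadjusted p under 0.05 by edgeR, beside 27.8% of all tested genes. Neutrophil markers (4 log2 fold changes above 0, 4 below) summed to 2958 to 6025 CPM in α-KG and 3005 to 5579 CPM in water. Granulocyte precursor markers (1 above, 4 below) summed to 334 to 565 CPM in α-KG and 273 to 539 CPM in water. B cell markers had 6 of 6 above 0, and platelet and megakaryocyte markers 3 above and 2 below. None of the markers in these lists was called by edgeR (2.73% over all tested genes). With the erythroid marker mean as a covariate the Pcx log2 fold change was -0.70 and called (edgeR adjusted p = 0.0489), in a fit that called 3.19% of tested genes. With the monocyte marker mean it was -0.05 (edgeR adjusted p = 1), and with the cell cycle marker mean it was 0.26 (edgeR adjusted p = 0.855), in edgeR fits that called 0 genes (150 and 1024 genes at an unadjusted p under 0.05). The part of these cells in the Pcx difference was not tested.

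**Figure D2:**
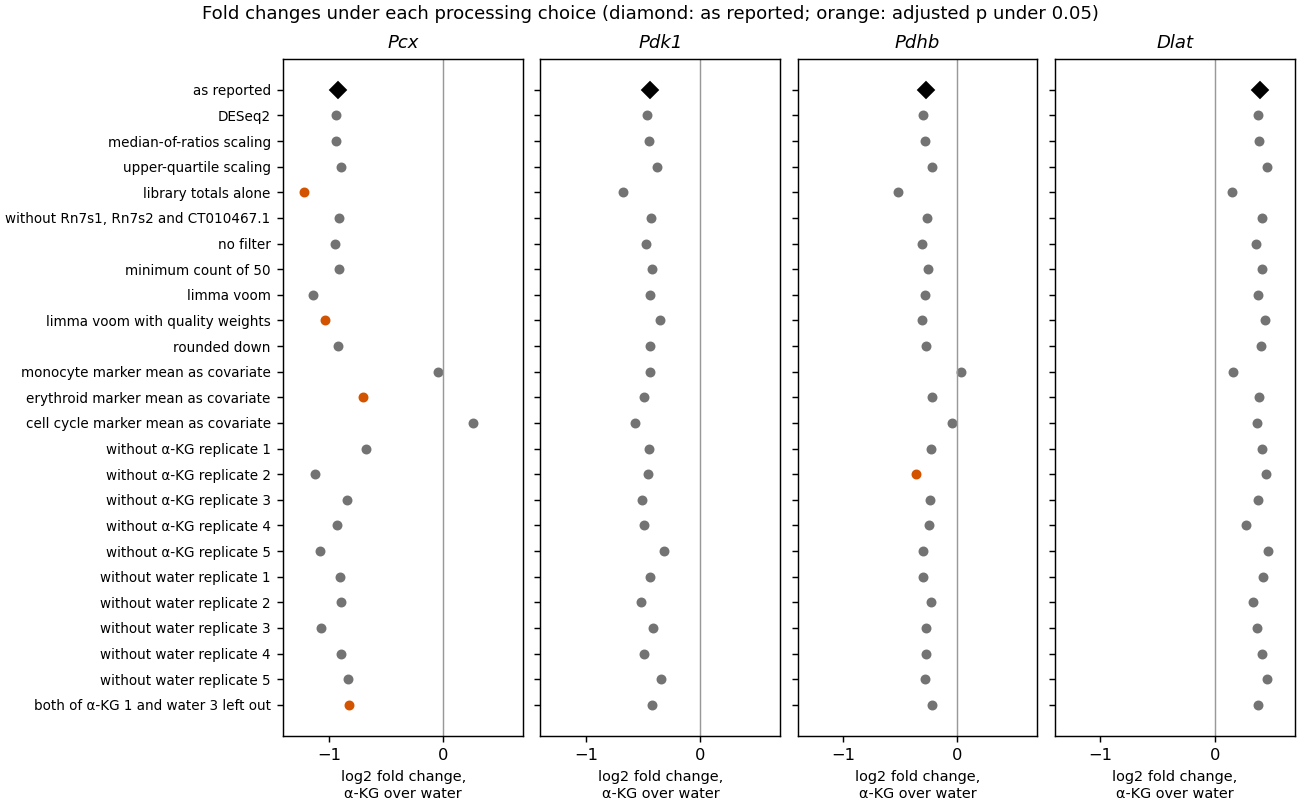
Log2 fold changes (α-KG over water) of Pcx, Pdk1, Pdhb and Dlat under each processing choice; the diamond is the value as reported, and orange marks an adjusted p under 0.05. Pcx spans -1.22 to 0.26 and is orange under 4 choices, Pdhb is orange under 1, and Pdk1 and Dlat under none.

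Genes with the library profile of Pcx were found among 8696 genes by Pearson's r of log2 CPM over the 10 libraries. Members, unnamed gene models and immune receptor segments were left out of these candidates. The 5 most alike were Adam10 (r = 0.9992), Cd47 (0.9919), Bsg (0.9916), Slc16a1 (0.9903) and Endod1 (0.9901). Without α-KG 1 their r over 9 libraries stayed between 0.9772 and 0.9981. ADAM10 is a membrane protease, CD47 the "do not eat me" surface protein, SLC16A1 (MCT1) a carrier of lactate and pyruvate across the cell membrane, and BSG the chaperone protein that carries MCT1 to that membrane. These points share library, depth and scaling, and r is given as a description. For Dlat the most alike were Smarcad1 (r = 0.9598), Efl1 (0.9139), Spast (0.9078), Ids (0.9062) and Ino80e (0.9014), so Pcx had closer neighbours than Dlat. Adam10 itself averaged 114 ± 39.9 CPM in α-KG and 172 ± 29.9 CPM in water (SD, n = 5 each), with a log2 fold change of -0.60 ± 0.25 that was not called (SE, edgeR adjusted p = 0.151).

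**Figure D3:**
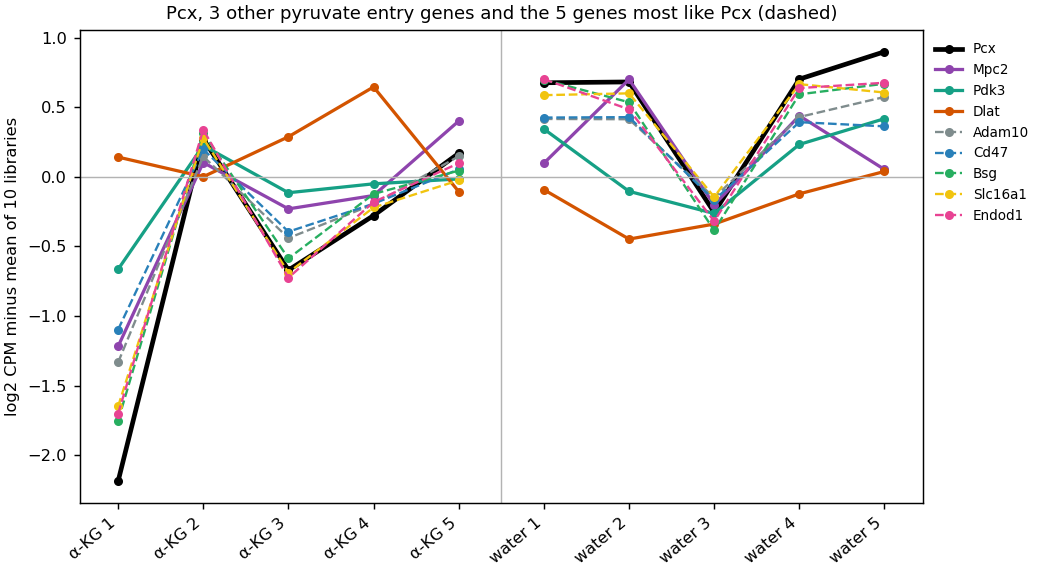
Log2 CPM minus the mean of 10 libraries, by library, α-KG left of the line and water right: Pcx, Mpc2, Pdk3 and Dlat as solid lines and the 5 genes most like Pcx as dashed lines. Pcx and the dashed lines dip together in α-KG 1, α-KG 3 and water 3, while Dlat lies above its mean in α-KG 1 and α-KG 3.

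The annotated promoters of Pcx show what sequence stands before its starts, and those of Mpc2, whose profile was close to that of Pcx (r = 0.90), and of the first start of Pdk1, a known HIF target, are set beside them. The sequences are RefSeq's on GRCm38.p6, from 250 bases before to 50 after a start site, plus strand, 5′ to 3′, and all 9 genes matched 13 such windows. Capitals mark the HIF core motif (ACGTG or GCGTG), the E-box CACGTG and the GATA motif (the letters GATA with A or T before them and A or G after them), searched on both strands; the E-box contains ACGTG and reads the same on both strands.
Pcx, first start, chr19:4510222-4510521: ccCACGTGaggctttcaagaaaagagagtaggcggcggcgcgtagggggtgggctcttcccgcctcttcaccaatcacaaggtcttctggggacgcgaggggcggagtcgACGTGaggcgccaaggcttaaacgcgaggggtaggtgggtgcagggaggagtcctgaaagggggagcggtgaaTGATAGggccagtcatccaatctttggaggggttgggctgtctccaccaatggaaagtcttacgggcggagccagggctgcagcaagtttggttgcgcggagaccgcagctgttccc
Pcx, second start, chr19:4594069-4594368: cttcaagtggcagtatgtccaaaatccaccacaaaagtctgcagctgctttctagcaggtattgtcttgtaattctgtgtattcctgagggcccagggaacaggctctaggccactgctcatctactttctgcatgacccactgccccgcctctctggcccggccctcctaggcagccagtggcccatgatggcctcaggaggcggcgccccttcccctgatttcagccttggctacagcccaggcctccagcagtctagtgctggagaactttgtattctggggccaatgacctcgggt
Mpc2, chr1:165461010-165461309: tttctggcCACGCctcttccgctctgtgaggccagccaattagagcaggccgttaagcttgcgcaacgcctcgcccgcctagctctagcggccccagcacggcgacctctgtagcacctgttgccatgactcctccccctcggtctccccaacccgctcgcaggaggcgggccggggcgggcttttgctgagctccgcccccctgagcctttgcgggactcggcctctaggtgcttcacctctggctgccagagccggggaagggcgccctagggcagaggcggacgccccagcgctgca
Pdk1, chr2:71872974-71873273: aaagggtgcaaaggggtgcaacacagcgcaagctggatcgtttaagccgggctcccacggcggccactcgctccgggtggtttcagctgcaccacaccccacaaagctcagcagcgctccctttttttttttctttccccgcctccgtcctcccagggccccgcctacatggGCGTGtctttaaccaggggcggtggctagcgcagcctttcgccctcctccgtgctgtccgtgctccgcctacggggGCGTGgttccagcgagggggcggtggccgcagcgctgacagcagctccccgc
The first Pcx window holds an E-box at -248, a further ACGTG at -140 and TGATAG at -67 from the start site, and the second holds none of the motifs. The Mpc2 window holds a GCGTG on the minus strand at -242, and the Pdk1 window shown, at its first start, holds GCGTG at -78 and -2. The window at the second Pdk1 start, chr2:71874654-71874953, holds none of the motifs and is not shown. Of 32851 mouse promoter windows 43.8% hold the HIF core, 7.15% the E-box and 29.8% the GATA motif, and of the 13 windows of these genes 8, 2 and 2 do. A match describes letters only.

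The 3 kinase genes had log2 fold changes below 0, that of Pdk2 within 1 SE of 0 (-0.05 ± 0.22), and none was called. Pdk1 (chromosome 2, 71873224 to 71903858, plus strand) measured 8.71, 8.94, 10.2, 9.79 and 5.40 CPM in α-KG 1 to 5, against 11.8, 9.28, 12.4, 10.2 and 14.9 CPM in water 1 to 5. Libraries α-KG 3 and 4 exceeded water 2 and the other 3 α-KG libraries lay below all water libraries. The means were 8.60 ± 1.89 CPM in α-KG and 11.7 ± 2.16 CPM in water (SD, n = 5 each), a log2 fold change of -0.44 ± 0.18 (SE, unadjusted p = 0.0286, edgeR adjusted p = 0.140). It kept its sign under all 24 other settings, from -0.68 to -0.32, and was never called.

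Pdk3 (chromosome X, 93764607 to 93832201, minus strand) had 9.39 ± 1.97 CPM in α-KG and 11.1 ± 2.21 CPM in water (SD, n = 5 each), with a log2 fold change of -0.25 ± 0.18 (SE, edgeR adjusted p = 0.379). Pdk2 (chromosome 11, 95026258 to 95041354, minus strand) was the scarcest member, at 17 to 103 counts a library, with 2.45 ± 0.539 CPM in α-KG and 2.58 ± 0.622 CPM in water (SD, n = 5 each) and a log2 fold change of -0.05 ± 0.22 (SE, edgeR adjusted p = 0.897). Per kilobase of exon, Pdk3 made up 65.6% ± 6.26 of the sum of the 3 kinases in α-KG and 65.1% ± 3.13 in water. Pdk1 made up 20.2% ± 5.09 in α-KG and 22.8% ± 3.94 in water, and Pdk2 14.2% ± 3.41 in α-KG and 12.1% ± 1.29 in water (SD, n = 5 each, no test). The fourth kinase gene, Pdk4, a fasting-induced kinase in liver and muscle, had 27 counts over all libraries and was too scarce to test.

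Levels between genes were compared per kilobase of all annotated exons, first as the mean of all 10 libraries. Pdhb led at 10.2 ± 1.48 CPM per kilobase, followed by Pdha1 at 7.06 ± 0.701 and Pcx at 4.99 ± 2.28 (SD over 10 libraries). Pdk3 at 4.01 ± 0.850, Mpc2 at 3.76 ± 1.18 and Mpc1 at 3.46 ± 0.434 formed a middle group, in which Mpc2 exceeded Mpc1 in 4 of 10 libraries. Dlat at 1.85 ± 0.433, Pdk1 at 1.31 ± 0.324 and Pdk2 at 0.795 ± 0.175 were lowest. Only the steps from Pdhb to Pdha1 and from Mpc1 to Dlat held in 10 of 10 libraries. The third place of Pcx held in water libraries (6.52 ± 1.69 CPM per kilobase) and not in α-KG libraries, where Pcx at 3.46 ± 1.74 stood below Pdk3 at 3.67 ± 0.769 and Mpc1 at 3.50 ± 0.357 (SD, n = 5 each). Mpc2 had a mean below that of Mpc1 in α-KG libraries (3.27 ± 1.17, SD, n = 5) and above it in water libraries (4.25 ± 1.07 for Mpc2 and 3.42 ± 0.540 for Mpc1). The order depends also on length: Mpc2 has 7344 exon bases in all but 1025 in its principal transcript, and per kilobase of that transcript, a choice made after seeing the data, it ranked first at 26.95 CPM, above Pdhb at 25.9 in 6 of 10 libraries. Dlat, Pdk1 and Pdk2 were lowest by both lengths.

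Between members, the closest profile to that of Pcx was that of Mpc2 (Pearson's r of log2 CPM 0.90 over 10 libraries), followed by Pdk3 (0.88) and Pdhb (0.81). Without α-KG 1 these were 0.68, 0.73 and 0.71 over 9 libraries, so the likeness to Mpc2 was weaker without that library. A difference between the groups also enters these values. Within the 5 α-KG libraries r with Pcx was 0.98 for Mpc2, 0.97 for Pdk3 and 0.81 for Pdhb, and within the 5 water libraries it was 0.56 for Mpc2, 0.80 for Pdk3 and 0.03 for Pdhb. The subunits that work as partners were not alike: r was -0.02 for Mpc1 with Mpc2, -0.24 for Pdha1 with Pdhb and -0.77 for Pdhb with Dlat, and without α-KG 1 it was -0.58, -0.11 and -0.84 in the same order. Mpc1 with Mpc2 had r of 0.57 within α-KG and -0.56 within water. Pdha1 was most like the kinase gene Pdk1 (0.71, and 0.80 without α-KG 1). All pairs share library, depth, scaling and cell makeup, and the r values are descriptions.

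**Figure D4:**
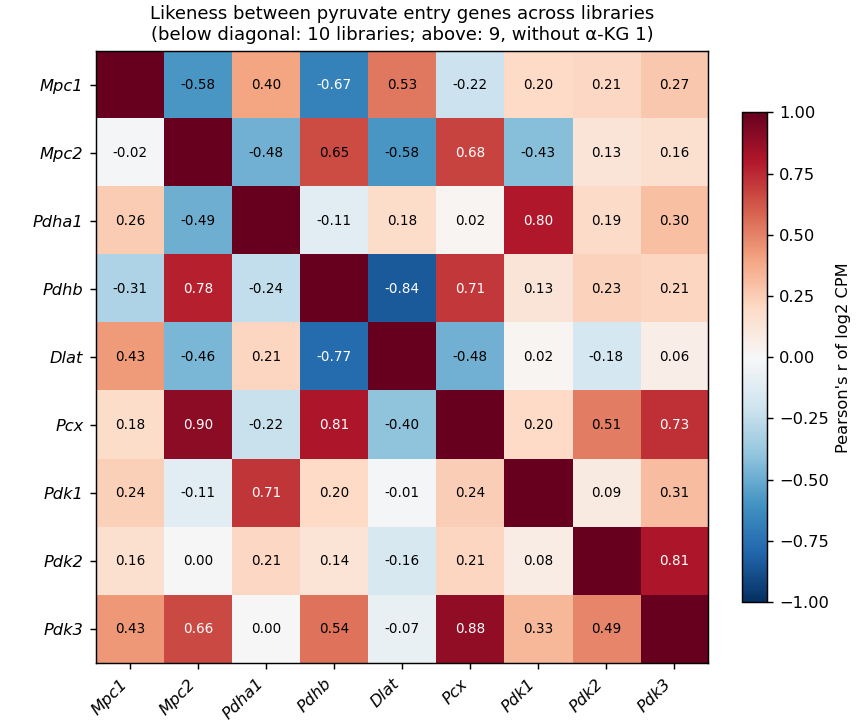
Pearson's r of log2 CPM between the 9 genes, below the diagonal over 10 libraries and above it over 9 without α-KG 1. Pcx is red with Mpc2, Pdk3 and Pdhb on both sides of the diagonal, and Dlat with Pdhb is blue in both (-0.77 and -0.84).

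The surrounding pathway was read from 52 further genes, of which 41 were tested, 1 was called higher and 0 lower by edgeR, and 14 had an unadjusted p under 0.05. These shares, 1 and 14 of 41, stand beside 2.39% called higher and 27.8% at an unadjusted p under 0.05 over all tested genes. Their log2 fold changes were above 0 for 23 and below 0 for 18, with a median of 0.14 beside 0.02 over all tested genes. The called gene was Slc16a7, which encodes MCT2, a high-affinity carrier of pyruvate and lactate across the cell membrane. It measured 2.76, 2.07, 2.30, 2.66 and 1.66 CPM in α-KG 1 to 5, against 1.14, 0.794, 1.21, 0.563 and 1.06 CPM in water 1 to 5. The groups did not overlap, and Slc16a7 rose with a log2 fold change of 1.25 ± 0.25 (SE, edgeR adjusted p = 0.0278). It rests on few counts, 12 in the lowest library, and shares 179 exon bases with Gm47862 on the other strand. The call was lost without α-KG 1, 3 or 4 or without water 1, 2, 4 or 5 (log2 fold changes 1.11 to 1.33, edgeR adjusted p 0.0639 to 0.0967). Those fits called 0 to 139 genes in all. The call was also lost with scaling by library totals alone (1.005, edgeR adjusted p = 0.107) and with the monocyte (0.98, edgeR adjusted p = 1) or cell cycle marker mean (0.95, edgeR adjusted p = 0.704) as a covariate. Both covariate fits called 0 genes.

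**Figure D5:**
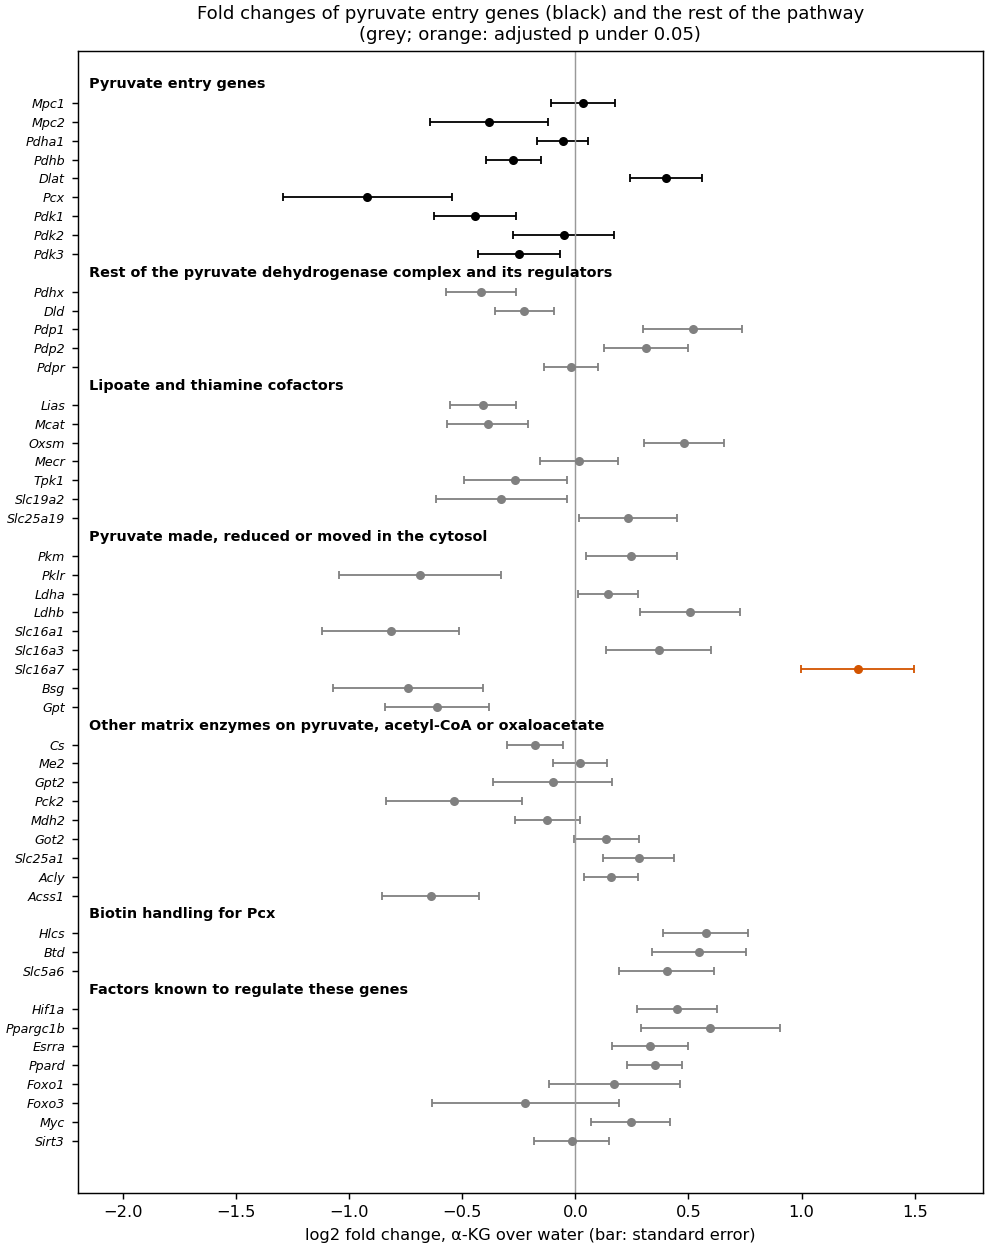
Log2 fold changes (α-KG over water) with standard errors for the 9 pyruvate entry genes (black) and the 41 tested genes of the surrounding pathway (grey), by list; orange marks an edgeR adjusted p under 0.05. Slc16a7 alone is orange, and Pcx lies farthest to the left.

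The cytosolic genes that make, reduce or carry pyruvate, Slc16a7 among them, gave 5 of 9 with an unadjusted p under 0.05 (27.8% over all tested genes), 5 values above 0 and 4 below, and a median of 0.15. Slc16a1, the MCT1 gene that followed Pcx, measured 40.6, 155, 79.1, 110 and 125 CPM in α-KG 1 to 5, against 192, 193, 115, 203 and 194 CPM in water 1 to 5. Its only overlap between the groups came from water 3, and its log2 fold change of -0.82 ± 0.30 was not called (SE, edgeR adjusted p = 0.115). Gpt, the cytosolic alanine aminotransferase that makes pyruvate from alanine, had 1.79 ± 0.550 CPM in α-KG and 2.75 ± 0.503 CPM in water (SD, n = 5 each), a log2 fold change of -0.61 ± 0.23 (SE, edgeR adjusted p = 0.119).

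In the rest of the pyruvate dehydrogenase complex and its regulators, 5 of 7 genes were tested and none was called by edgeR. Of the 5, 2 had an unadjusted p under 0.05 (27.8% over all tested genes). Pdhx, which anchors the E3 enzyme to the core, had a log2 fold change of -0.42 ± 0.15 (SE, edgeR adjusted p = 0.116), and Dld, the E3 enzyme itself, -0.23 ± 0.13 (SE, edgeR adjusted p = 0.272). Pdp1, a phosphatase that reverses the kinases, had 2.29 ± 0.608 CPM in α-KG and 1.58 ± 0.237 CPM in water (SD, n = 5 each) and a log2 fold change of 0.52 ± 0.22 (SE, edgeR adjusted p = 0.151). The list's median was -0.02. Among 7 tested genes of lipoate and thiamine cofactors, none was called by edgeR (2.73% over all tested genes) and the median was -0.27. Of the 7, 2 had an unadjusted p under 0.05 (27.8% over all tested genes). Lias, which makes the lipoate that DLAT carries, had -0.41 ± 0.15 (SE, edgeR adjusted p = 0.106), Oxsm, the mitochondrial fatty acid synthase step behind it, 0.48 ± 0.18 (edgeR adjusted p = 0.116), and Mcat, the step that loads malonyl groups, -0.39 ± 0.18 (edgeR adjusted p = 0.181).

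The genes of biotin handling, on which pyruvate carboxylase depends, had log2 fold changes above 0 in 3 of 3, beside 7816 of 15126 tested genes. Their median was 0.55, and none was called by edgeR (2.73% over all tested genes). At an unadjusted p under 0.05 by edgeR there were 2 of 3 (27.8% over all tested genes). Hlcs, the ligase that attaches biotin to PCX, averaged 10.4 ± 2.63 CPM in α-KG and 7.002 ± 1.14 CPM in water (SD, n = 5 each), a log2 fold change of 0.58 ± 0.19 (SE, edgeR adjusted p = 0.0908). Btd, which recycles biotin, had 0.55 ± 0.21 (SE, edgeR adjusted p = 0.125) and Slc5a6, the vitamin's transporter, 0.40 ± 0.21 (SE, edgeR adjusted p = 0.221). Their values stood opposite in sign to that of Pcx itself.

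Of the other matrix enzymes that use pyruvate, acetyl-CoA or oxaloacetate, 9 of 10 were tested and none was called by edgeR. Of the 9, 1 had an unadjusted p under 0.05 (27.8% over all tested genes). That was Acss1, which makes acetyl-CoA from acetate, at 33.9 ± 10.6 CPM in α-KG and 52.9 ± 11.5 CPM in water (SD, n = 5 each), a log2 fold change of -0.64 ± 0.22 (SE, edgeR adjusted p = 0.0973). Acss1 was called by DESeq2 (-0.66, adjusted p = 0.0457), where 10.4% of genes with an adjusted p were called. It was called by limma voom with quality weights (-0.70, adjusted p = 0.0348), where 15.6% of tested genes were. It was also called with library totals alone (-0.86, edgeR adjusted p = 0.0249, 7.66% called) and without α-KG 2 (-0.81, edgeR adjusted p = 0.0220, 17.4% called). Its value was 0.11 with the monocyte marker mean as a covariate (edgeR adjusted p = 1). With the cell cycle marker mean it was -0.17 (edgeR adjusted p = 0.923), and both covariate fits called 0 genes. Pck2, which turns oxaloacetate into phosphoenolpyruvate, had -0.54 ± 0.30 (SE, edgeR adjusted p = 0.254), and Slc25a1, the citrate carrier, 0.28 ± 0.16 (SE, edgeR adjusted p = 0.254). Among factors known to regulate these genes, 8 of 10 were tested and none was called by edgeR (2.73% over all tested genes). Of the 8, 6 had values above 0, beside 7816 of 15126 tested genes. At an unadjusted p under 0.05 by edgeR there were 2 (27.8% over all tested genes). Hif1a, the HIF subunit, had 0.45 ± 0.18 (SE, edgeR adjusted p = 0.135), Ppard 0.35 ± 0.12 (SE, edgeR adjusted p = 0.103) and Esrra 0.33 ± 0.17 (SE, edgeR adjusted p = 0.214), the last 2 being nuclear receptors of fat and mitochondrial metabolism. Hif1a, Btd, Slc5a6, Mcat, Oxsm, Lias, Pck2, Acss1 and Esrra share exon bases with a gene on the other strand.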

How the data were processed

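RNA of mouse bone marrow cells was depleted of ribosomal RNA and sequenced on an Illumina instrument, per the labels' protocols. The submitters' processing notes name bcl2fastq and DRAGEN, without versions, and the build GRCm38; the sources used here do not name the quantifier, the annotation release or whether strand was used. The authors' deposited table holds estimated counts per gene, unscaled between libraries, and 10.3% of values are not whole.

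Counts were rounded and genes kept by filterByExpr (minimum count 10, minimum total 15), which left 15126 of 32256 genes with a count above 0. The α-KG and water groups, 5 libraries each by the treatment label, were compared with edgeR 4.0.16 in R 4.3.3 (TMM factors 0.737 to 1.44, robust quasi-likelihood F test, two-sided). P-values were adjusted over all tested genes by the Benjamini-Hochberg method, with a threshold of 0.05. The common biological variation (coefficient) was 0.254. The standard error is the size of the log2 fold change over the root of F. CPM use TMM-scaled library sizes, and log2 CPM for profiles have a prior count of 2. Likeness was sought among tested genes with a mean log2 CPM of at least 2. Members, genes with only a model, clone or accession name, and immune receptor segments were left out. Alternatives used DESeq2 1.42.0, limma 3.58.1, other scalings and filters, marker covariates, and libraries left out. The steps were also tested on simulated data.

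Positions and lengths came from GENCODE M21. Named genes are the 9 members and, of each other list, called genes and the 3 with the smallest unadjusted p. Members, lists and tests were chosen with earlier results of these data known.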

Additional observations from a re-analysis of the deposited data

Results flagged for a closer look

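Of 54 groups of 5 libraries checked for a single value far from the rest, 4 had one, and chance gives about 1 in 20. Pcx in water 3 was the lowest of its group at 17.2 CPM, the next being 32.9 CPM. Slc16a1 in the same library was lowest at 115.4 CPM, the next being 192 CPM. Slc5a6 was lowest in α-KG 5 at 1.22 CPM, the next being 1.84 CPM, and lowest in water 1 at 1.10 CPM, the next being 1.43 CPM.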

How the results depend on the processing

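Under 24 alternatives, Dlat and Pdk1 kept their direction and were not called, and the signs of Pcx, Mpc2, Pdhb and Pdk3 held whenever 1 library was left out. The number of genes called depended on the setting: 413 as reported, 1654 by DESeq2, 1159 with library totals alone, 273 by limma voom, 2365 with quality weights, and 0 with the monocyte marker mean (150 at an unadjusted p under 0.05 by edgeR) or the cell cycle marker mean (1024) as a covariate. Leaving out single libraries gave 0 to 2683 calls, with 0 by edgeR without α-KG 4 or water 1, 2 or 4 (3232 to 3672 at an unadjusted p under 0.05) and 2683 without α-KG 2. Members called were 1 (Pcx) with library totals alone, quality weights, the erythroid covariate or α-KG 1 and water 3 both left out, the last chosen after seeing the data, and 0 to 1 with single libraries left out. Of the other pathway genes 2 were called by DESeq2, 5 with library totals alone, 5 with quality weights, 0 with a minimum count of 50, which removes Slc16a7, 0 with the monocyte or cell cycle covariate (Slc16a7 1.005 with library totals alone, 0.98 and 0.95 with those covariates, not called), and 0 to 7 with single libraries left out. Signs turned for Mpc1 with library totals alone (-0.24), no filter (-0.0016) and the monocyte covariate (-0.037); for Pdha1 with upper-quartile scaling (0.0092); and for Pdk2 with that scaling (0.011). With single libraries left out, log2 fold changes ran from -0.026 to 0.104 for Mpc1, -0.099 to 0.012 for Pdha1 and -0.15 to 0.053 for Pdk2. Signs turned with the monocyte covariate for Pdha1 (0.036), Pdhb (0.033), Pdk2 (0.78), Pdk3 (0.29), Lias (0.14), Acss1 (0.11), Pck2 (0.066), Hlcs (-0.22), Ppard (-0.013), Hif1a (-0.34) and Esrra (-0.36), and with the cell cycle covariate for Mpc2 (0.30), Pcx (0.26), Pdk2 (0.13), Pdk3 (0.23), Slc16a1 (0.12), Pck2 (0.39) and Esrra (-0.14). The cause was not tested. No paired analysis was possible because no replicate number in the labels is shared by both groups. Low counts limit Pdk2 (17 to 103 counts a library), Slc16a7 (12 to 71), Gpt (12 to 79), Pdp1 (17 to 55) and Slc5a6 (17 to 47).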
